A study of Mus musculus with 12 samples.

Results

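The subunits of respiratory complexes II to V that are encoded in the nucleus were followed in the livers of 12 mice. Members were taken by a rule on gene names, which was set with earlier results of these data known. The names begin as those of the succinate dehydrogenase, cytochrome bc1 (with Cyc1), cytochrome c oxidase (4 to 8) and ATP synthase subunits do. Genes named as pseudogenes were left out. The paper counts oxidative phosphorylation among the pathways enriched in genes lower in these same KO livers. The shares of calls below describe these data and are no independent test of that. The rule returned 51 of the 57180 identifiers in the deposited table, of which 4 belong to complex II, 9 to complex III, 19 to complex IV and 19 to complex V. Those of complex IV include Cox6c2, which the annotation types as a processed pseudogene although its name does not show it. There were 3 female and 3 male mice in each of 2 genotype groups, KO and Het, and all of them lacked Csa and had received AAV9-CSA, a vector with human CSA cDNA under the ubiquitous chicken beta-actin promoter, into the brain ventricles at birth. Het mice were Csa-/- Xpa+/- littermates of matched age, and KO mice were the CX mice at their humane endpoint. The methods and the design text write their genotype as Csa-/- Xpa+/+, whereas CX mice are elsewhere described as lacking Xpa as well. The groups are therefore called here by the names KO and Het. The Xpa transcript was lower in KO than in Het livers, with the values given below, which is the direction of the description without Xpa. Humane endpoint and genotype cannot be told apart, and the age of single mice is not given in the sources used here.

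Complexes II, III and IV pass electrons from succinate or ubiquinol to oxygen, and complexes III and IV pump protons across the inner mitochondrial membrane as they do so. Complex V, the ATP synthase, lets these protons return and uses them to make ATP. In each of these complexes a few subunits carry out catalysis and the others hold the enzyme together or regulate it. The liver draws on them for gluconeogenesis, ureagenesis and fatty acid oxidation. Complex II is encoded wholly in the nucleus, whereas complexes III, IV and V each contain subunits made from mitochondrial DNA. Several subunits of complex IV have a second isoform that is made mostly in muscle, lung or testis.

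Promoters of such genes are known for sites of NRF1, GABPA, the estrogen-related receptors and YY1. RefSeq promoter windows (build GRCm38.p6) were found for 33 of the 44 members that passed the filter on low counts, and the 250 bases before the annotated start were searched on both strands. The NRF1 letters GCGCANGCG occurred before 8 of these 33 genes (24.2%) and before 1584 of the 27025 genes with a window (5.86%). They were found for 3 of 12 members called lower in KO livers (25.0%) and for 5 of the 21 others (23.8%). The GABPA letters CCGGAAGT were before 3 members, of which Atp5pd was called lower, and before 3.23% of all genes. TCAAGGTCA, for the estrogen-related receptors, was found before Atp5mc3 alone (0.422% of all genes) and AAGATGGC, for YY1, before Atp5pf alone (1.83% of all genes). The windows of the 3 members that were called lower and hold the NRF1 letters are shown 5′ to 3′ on the gene's strand, in lower case with the matched letters in capitals. They lie on the minus strand at chr13:74350241-74350490 (Sdha), chr5:108434400-108434649 (Atp5me) and chr11:115419920-115420169 (Atp5pd). Atp5me has overlapping matches on the 2 strands, and the second match of Atp5pd is the GABPA letters. A match describes the letters only.
Sdha: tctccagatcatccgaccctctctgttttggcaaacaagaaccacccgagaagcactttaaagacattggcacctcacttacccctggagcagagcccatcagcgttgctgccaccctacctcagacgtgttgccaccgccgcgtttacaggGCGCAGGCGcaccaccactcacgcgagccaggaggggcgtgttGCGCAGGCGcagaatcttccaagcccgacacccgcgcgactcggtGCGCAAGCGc
Atp5me: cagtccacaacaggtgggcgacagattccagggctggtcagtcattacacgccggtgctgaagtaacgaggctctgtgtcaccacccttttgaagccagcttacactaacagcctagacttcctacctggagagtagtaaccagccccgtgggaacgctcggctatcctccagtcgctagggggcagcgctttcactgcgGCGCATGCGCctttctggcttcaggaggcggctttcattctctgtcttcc
Atp5pd: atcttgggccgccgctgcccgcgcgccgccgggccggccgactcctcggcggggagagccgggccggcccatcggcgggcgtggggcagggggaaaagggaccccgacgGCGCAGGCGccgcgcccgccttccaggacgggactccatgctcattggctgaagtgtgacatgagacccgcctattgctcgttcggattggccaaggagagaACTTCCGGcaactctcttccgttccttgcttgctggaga

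Between 30044812 and 43634073 estimated counts were assigned to genes in each liver. Levels are given as CPM, counts brought to a common library size with TMM scaling factors, and as TPM where genes are compared with each other, since TPM is divided by transcript length. Xpa had 3.1 to 6.34 CPM in Het and 0.992 to 1.83 CPM in KO livers, with a log2 fold change of -1.83 (adjusted p = 6.26e-05), and no KO liver reached the lowest Het liver. The liver identity of the samples was checked with hepatocyte markers, whose summed level was 52383 to 73518 CPM in Het and 68388 to 122739 CPM in KO livers, with 6 of 7 markers found, 1 of them lower in KO and none higher. Of 6 macrophage markers 2 were higher in KO livers, with a summed level of 82.4 to 213 CPM in Het and 109 to 332 CPM in KO. 1 gene was lower among the stellate cell markers (135 to 259 CPM in Het, 83.0 to 200.2 in KO), endothelial markers (144 to 267 and 114 to 200) and erythroid markers (133 to 523 and 108.1 to 260). No cholangiocyte or lymphocyte marker was called, 1 of 2 tested neutrophil markers was higher (0.39 to 2.73 CPM summed in Het, 1.54 to 2.67 in KO), and the 1 tested pancreas marker was lower. Muscle and fat markers, which matter for isoforms of other tissues, summed to at most 0.465 and 0.352 CPM in any liver. Transcripts of the mitochondrial genome took 5.65% to 6.71% of the counts in Het and 4.62% to 6.002% in KO livers. In bulk tissue, fewer cells of a type and less RNA per cell cannot be told apart, and the part of the marker differences in the results below was not tested.

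In each of the 4 complexes at least 1 subunit transcript was lower in KO livers than in Het livers. Of the 44 members tested, 15 were lower in KO livers, Cox7a2l was higher and 28 did not pass the test (edgeR's quasi-likelihood test, adjusted p under 0.05 after Benjamini-Hochberg adjustment over all 19350 genes tested). The members called lower were 34.1% of those tested, where 9.8% of all genes tested were lower, and the single gene called higher was 2.27%, where 11.8% of all genes were. The log2 fold change was below 0 for 40 of the 44 members, with a median of -0.23, while the median over all tested genes was 0.02. The 15 members called lower had log2 fold changes between -0.50 and -0.24, which are changes of -29.5% to -15.6%. Without KO_F_108, a liver with low values of several members, 14 members were lower. Among the 28 members without a call, 25 lay below 0 and 3 above it. In 10 members every KO liver lay below every Het liver, where 4.64% of all genes did so, and in no member did every KO liver lie above, where 4.72% of all genes did. The other 7 identifiers were not tested, since none exceeded 0.228 CPM in any liver and 3 were at 0 throughout.

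**Figure D1:**
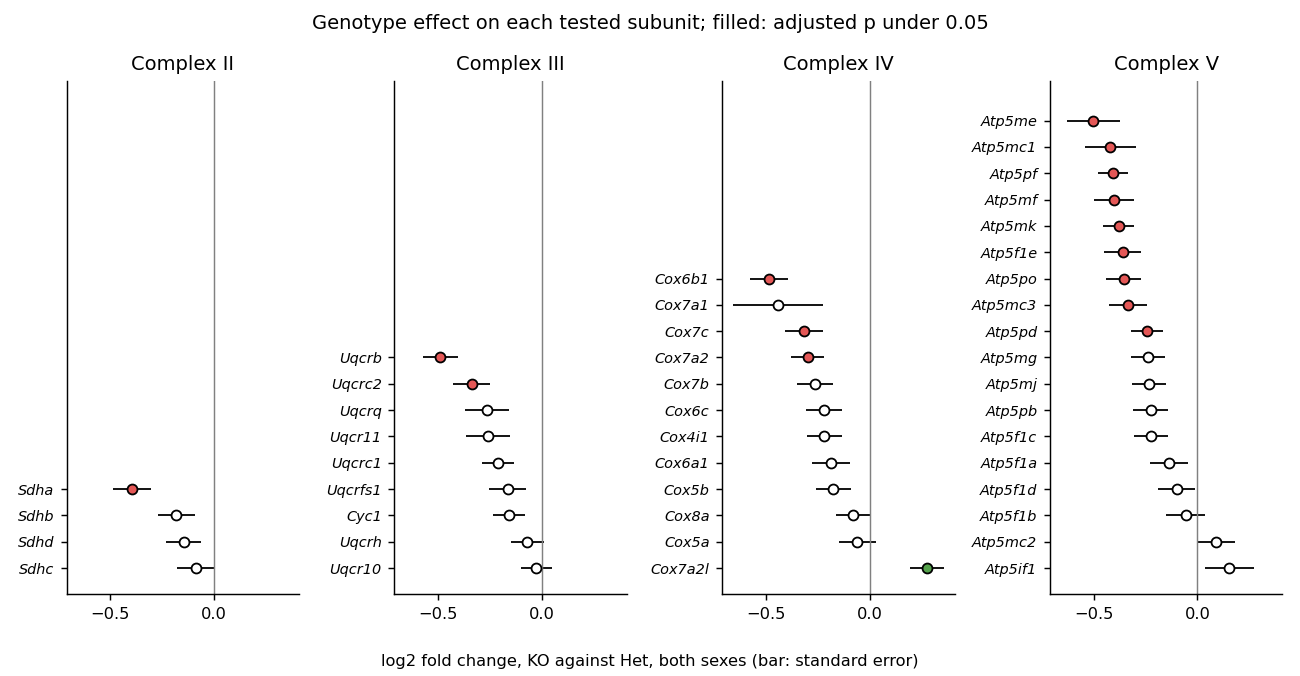
Log2 fold change of KO against Het over both sexes (horizontal axis) with its standard error for the tested members of each complex, in the order of their values. Filled circles passed the test at an adjusted p under 0.05, red for lower and green for higher; Cox6b2, at 1.74 with an SE of 0.96, lies outside the axis and was left out.

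Summed over all members, the level was 5089 to 6200 CPM in Het livers (5573 ± 475, SD, n = 6) and 4471 to 5193 CPM in KO livers (4857 ± 281). The ranges overlapped, since KO_F_112 (5193 CPM) and KO_M_136 (5094 CPM) lay above the lowest Het liver, Het_F_126. In TPM the sums did not overlap, with 5279 to 5669 TPM in Het livers and 4515 to 4943 TPM in KO livers. The small RNAs Rn7s1, Rn7s2 and Rn7sk hold 50.04% to 59.9% of the TPM of a liver, and after they were left out and each liver was scaled to the same total again, the sums were 11870 to 12890 TPM in Het livers and 9319 to 11320 TPM in KO livers, also without overlap. Complex V held the largest sum on both scales.

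**Figure D2:**
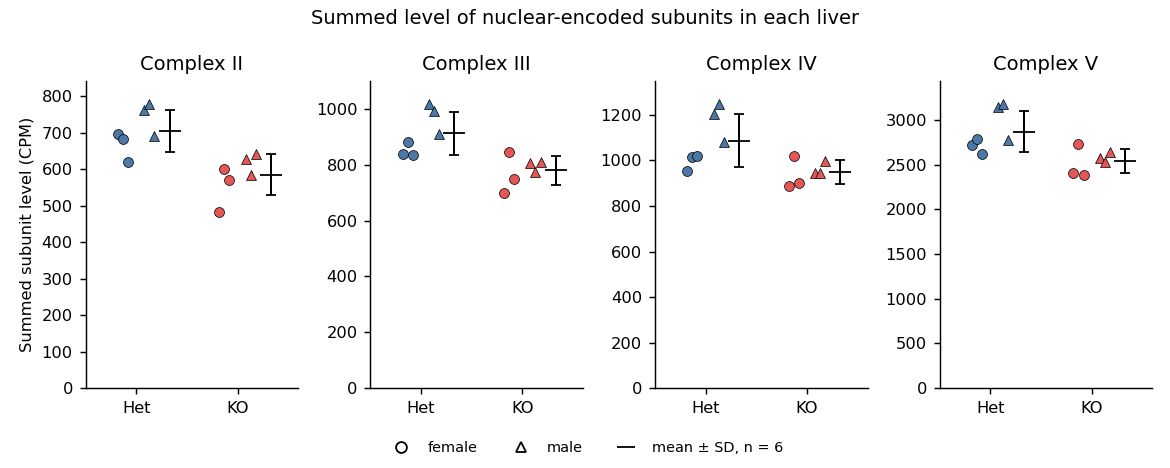
Summed CPM of the nuclear-encoded subunits of each complex (vertical axis, from 0) in each liver, by genotype. Circles are females, triangles are males, and the bar is the mean ± SD of 6 livers. The KO livers lie lower in each complex, with some overlap, as for complex V with 2377 to 2728 CPM in KO and 2616 to 3179 CPM in Het livers.

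Complex II is the succinate dehydrogenase of the citric acid cycle. Its level summed to 619 to 779 CPM in Het and 483 to 643 CPM in KO livers, and 1 of its 4 subunits was called. Sdha (ENSMUSG00000021577.15, GRCm39 chromosome 13 from 74469359 to 74498436, minus strand) encodes the flavoprotein that oxidises succinate. Its level was 315 CPM in the lowest Het liver, 361 at the median and 421 in the highest, against 227.7, 285 and 309 CPM in KO livers. No KO liver reached the lowest Het liver, and the log2 fold change was -0.40 (SE 0.09, adjusted p = 0.0121). The other subunits overlapped between the genotypes and did not pass the test. For Sdhb, the iron-sulfur subunit, the log2 fold change was -0.18 (SE 0.09, adjusted p = 0.173). The membrane anchors Sdhc and Sdhd had values of -0.09 (SE 0.09, adjusted p = 0.546) and -0.15 (SE 0.08, adjusted p = 0.233).

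Complex III, the cytochrome bc1 complex, summed to 836 to 1018 CPM in Het and 698 to 845 CPM in KO livers, and 2 of 9 subunits were called, both lower. Uqcrb (ENSMUSG00000021520.5, chromosome 13 from 67048655 to 67053443, minus strand), a small subunit near the ubiquinone site, had 55.5, 62.2 and 67.6 CPM in the lowest, median and highest Het liver and 39.0, 44.6 and 48.9 CPM in KO livers. Its ranges did not overlap, and its log2 fold change of -0.49 (SE 0.09, adjusted p = 0.00277) was the most negative in the complex. Uqcrc2, core protein 2, had 146, 172 and 182 CPM in Het and 120, 131 and 147 CPM in KO livers, with a log2 fold change of -0.34 (SE 0.09, adjusted p = 0.0206). Only the lowest Het liver lay within the KO range of Uqcrc2. Its partner Uqcrc1, core protein 1, did not pass the test at -0.21 (SE 0.08, adjusted p = 0.077), although every male KO liver lay below every male Het liver. The redox carriers of the complex did not pass either. Cyc1, cytochrome c1, was at -0.16 (SE 0.08, adjusted p = 0.168) and Uqcrfs1, the Rieske iron-sulfur protein, at -0.16 (SE 0.09, adjusted p = 0.208). The 5 small subunits ranged from -0.49 for Uqcrb to -0.03 for Uqcr10.

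Complex IV, cytochrome c oxidase, summed to 953 to 1249 CPM in Het and 888 to 1018 CPM in KO livers. Of its 13 tested members 3 were lower and 1 was higher. Cox6b1 (ENSMUSG00000036751.8, chromosome 7 from 30316282 to 30325616, minus strand), the ubiquitous isoform of subunit 6B, which faces the intermembrane space, had 93.0, 103 and 131 CPM in the lowest, median and highest Het liver and 64.0, 76.1 and 85.5 CPM in KO livers. The ranges did not overlap and the log2 fold change was -0.48 (SE 0.09, adjusted p = 0.00421). Cox7a2, the ubiquitous isoform of subunit 7A, had 57.2, 66.2 and 81.6 CPM in Het and 49.1, 55.7 and 58.0 CPM in KO livers, with a log2 fold change of -0.30 (SE 0.08, adjusted p = 0.02). Its ranges met, since KO_F_112 and KO_M_118 exceeded Het_F_111. Cox7c, a subunit with a single isoform, had 74.3, 78.3 and 100.2 CPM in Het and 61.4, 65.2 and 73.5 CPM in KO livers, without overlap, and a log2 fold change of -0.32 (SE 0.09, adjusted p = 0.0284). The call of Cox7c was lost without the filter on low counts and without Het_M_119, Het_M_125, KO_M_118 or KO_M_122, with an adjusted p of up to 0.0632 over all alternatives. The ubiquitous isoforms Cox4i1, Cox6a1 and Cox8a and the single-isoform subunits Cox5a, Cox5b, Cox6c and Cox7b did not pass the test, with log2 fold changes from -0.26 for Cox7b to -0.06 for Cox5a. Cox7b, at an adjusted p of 0.0519, passed in 6 of the 13 alternative settings, DESeq2 and library size alone among them, and also without Het_M_137 or without KO_F_112. Its adjusted p was 0.0285 to 0.114 over all alternatives.

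Cox7a2l (ENSMUSG00000024248.15, chromosome 17 from 83765970 to 83824759, minus strand) was the only member called higher. It encodes a relative of subunit 7A, also called SCAF1, which takes part in joining complex III and complex IV into a supercomplex. Its level was 58.8, 65.6 and 75.6 CPM in the lowest, median and highest Het liver and 72.0, 80.6 and 89.9 CPM in KO livers. Within females and within males every KO liver lay above every Het liver, and over both sexes the highest Het male lay above the lowest KO female. The log2 fold change was 0.28 (SE 0.08, adjusted p = 0.0325). The call was lost without any of 9 single mice (Het_F_111, Het_F_115, Het_F_126, Het_M_119, Het_M_137, KO_F_108, KO_F_112, KO_M_118 and KO_M_136), and over all alternatives the log2 fold change stayed between 0.23 and 0.31 with an adjusted p of up to 0.091. Set against Cox7a2 in TPM, the ratio of Cox7a2l to Cox7a2 was 0.483 to 0.617 in Het livers (0.526 ± 0.0503, SD, n = 6) and 0.737 to 0.997 in KO livers (0.794 ± 0.101). This ratio was formed after the values of both genes were seen. The annotation (GENCODE M39) places 4 other genes over Cox7a2l, 2 of them on its own strand. Reads could be split with those that are also in GENCODE M34, which was used for counting. Whether they are was not checked.

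**Figure D3:**
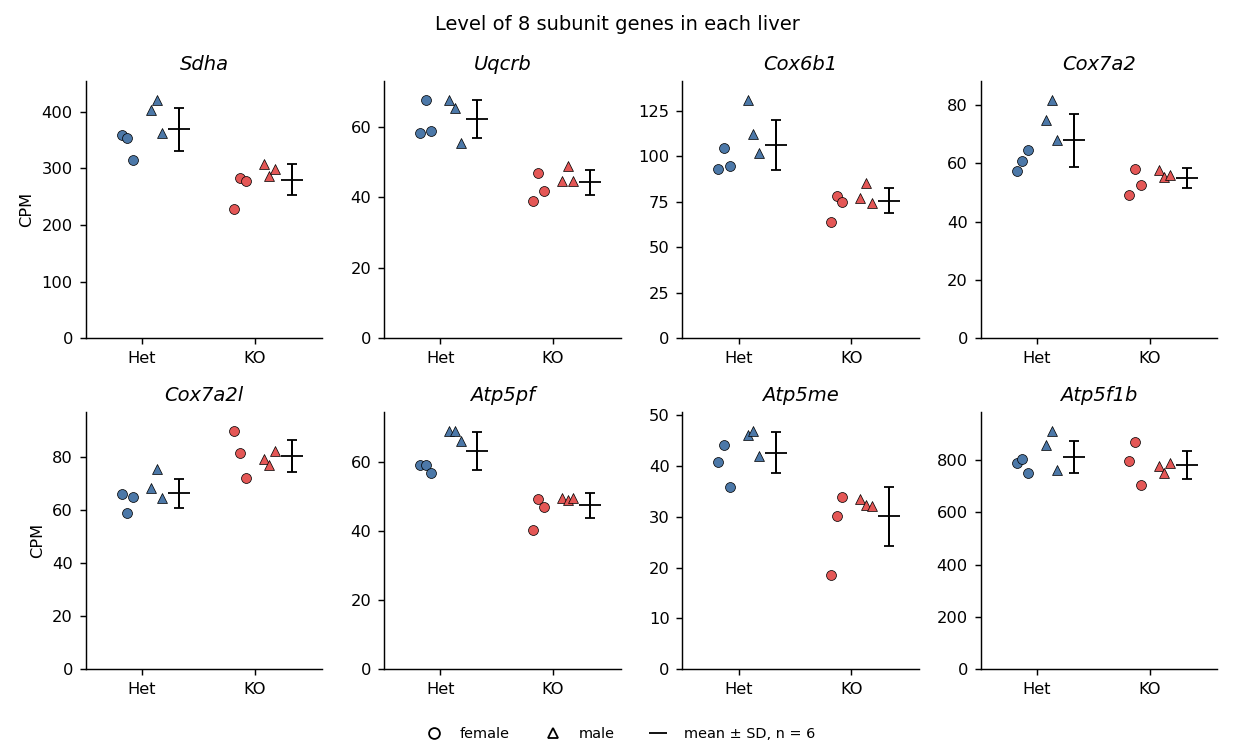
Level in CPM (vertical axes, from 0) of 8 subunit genes in each of the 12 livers, by genotype, with circles for females, triangles for males and the mean ± SD of 6 livers. Sdha, Uqcrb, Cox6b1, Atp5pf and Atp5me do not overlap between the genotypes, Cox7a2l lies higher in KO livers, and Atp5f1b, at 704 to 867 CPM in KO and 749 to 911 CPM in Het livers, overlaps widely.

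The isoforms made mainly in other tissues were near the limit of detection. Cox4i2, Cox6a2 and Cox8b did not exceed 0.228 CPM in any liver, and neither did Cox6c2, a processed pseudogene copy of subunit 6C. Cox7b2 and Cox8c were at 0 in all livers. A value of 0 allows a level of up to 0.0688 to 0.0999 CPM, or 3 counts, in a library by counting error alone. Cox7a1, the isoform of heart and skeletal muscle, was at 0.288 to 0.618 CPM in Het and 0.214 to 0.498 CPM in KO livers, with a log2 fold change of -0.44 that did not pass the test (SE 0.22, adjusted p = 0.169). Cox6b2, the testis isoform of subunit 6B, was uneven between livers of a group. Het_F_126 had 2.83 CPM, whereas the other 5 Het livers had 0 to 0.096 CPM. In KO livers it was 0.0268 CPM in KO_F_123, 0.651 in KO_F_108 and between 1.37 and 2.24 in the other 4. Its log2 fold change of 1.74 had an SE of 0.96 and did not pass the test (adjusted p = 0.228). Without Het_F_126 it passed, at 3.65 (adjusted p = 0.00606), and over all alternatives it was 1.01 to 3.65 with an adjusted p of 0.00606 to 0.43.

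Complex V, the ATP synthase, had the highest share of calls, which was not tested against the other complexes. Its summed level was 2616 to 3179 CPM in Het and 2377 to 2728 CPM in KO livers, and 9 of 18 tested members were lower. The calls are given by part of the enzyme, without a test between the parts. In the membrane sector 3 of 5 supernumerary subunits were lower, in the peripheral stalk 3 of 4 subunits, in the c ring 2 of 3 genes, in the central stalk 1 of 3 subunits and in the catalytic head 0 of 2. By role, the median log2 fold change was -0.38 in the supernumerary subunits, -0.33 in the c ring, -0.30 in the peripheral stalk, -0.22 in the central stalk and -0.10 in the catalytic head.

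The alpha and beta subunits bind the nucleotides. Per length, Atp5f1b had the highest mean level of all members, at 392 TPM in Het and 378 TPM in KO livers, followed in Het livers by Atp5f1a (243 TPM), Cox4i1 (242 TPM) and Uqcr11 (210 TPM). Atp5f1b (beta) had 749, 794 and 911 CPM in the lowest, median and highest Het liver and 704, 781 and 867 CPM in KO livers. The groups overlapped, and its log2 fold change of -0.06 (SE 0.09, adjusted p = 0.713) was under its error. Atp5f1a (alpha) had 629, 711 and 843 CPM in Het and 605, 668 and 698 CPM in KO livers, with a log2 fold change of -0.14 (SE 0.09, adjusted p = 0.305). In the central stalk, Atp5f1e (epsilon), named after its values were seen, fell from 59.8, 63.4 and 70.0 CPM in Het to 38.6, 51.6 and 55.2 CPM in KO livers without overlap (log2 fold change -0.36, SE 0.09, adjusted p = 0.0145). The gamma and delta subunits Atp5f1c and Atp5f1d did not pass the test, at -0.22 and -0.10.

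The peripheral stalk holds the head still against the turning rotor. Atp5pf (ENSMUSG00000022890.14, chromosome 16 from 84614160 to 84633154, minus strand), its coupling factor 6, had 56.8, 62.7 and 69.0 CPM in the lowest, median and highest Het liver and 40.3, 49.1 and 49.6 CPM in KO livers. No liver of one genotype entered the range of the other, and the log2 fold change was -0.41 (SE 0.07, adjusted p = 0.00299). The annotation has Gabpa overlapping it on the opposite strand. Gabpa, which encodes the DNA-binding subunit of a factor named above, had 43.0 to 53.1 CPM in Het and 40.1 to 49.6 CPM in KO livers and did not pass the test (log2 fold change -0.15, SE 0.08, adjusted p = 0.213). Atp5po, the oligomycin sensitivity conferring protein at the top of the stalk, had 79.7, 88.0 and 104 CPM in Het and 60.4, 72.4 and 75.5 CPM in KO livers, again without overlap (-0.36, SE 0.08, adjusted p = 0.0121). A second identifier named Atp5po, which overlaps the first in the annotation, was at 0 in every liver. Atp5pd (d), named after its values were seen, was at -0.24 (SE 0.08, adjusted p = 0.0406). This call was lost without any of 9 mice (Het_F_111, Het_F_115, Het_M_119, Het_M_125, KO_F_108, KO_F_123, KO_M_118, KO_M_122 and KO_M_136), with a log2 fold change of -0.28 to -0.22 and an adjusted p of up to 0.117 over all alternatives. Atp5pb (b) did not pass the test at -0.23 (SE 0.08, adjusted p = 0.0763).

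Among the supernumerary subunits of the membrane sector, which stabilise dimers of the enzyme, Atp5mk (DAPIT) had 34.7, 36.5 and 42.1 CPM in the lowest, median and highest Het liver and 26.7, 28.6 and 30.3 CPM in KO livers. Its ranges stood apart with a log2 fold change of -0.38 (SE 0.07, adjusted p = 0.00506). Atp5me (e) and Atp5mf (f), named after their values were seen, also stood apart. Atp5me had 35.9, 43.1 and 46.9 CPM in Het and 18.6, 32.3 and 33.8 CPM in KO livers (-0.50, SE 0.13, adjusted p = 0.017), the most negative value of any member called. Its lowest liver was KO_F_108. Atp5mf had 70.6, 76.1 and 89.5 CPM in Het and 45.3, 60.7 and 68.5 CPM in KO livers (-0.40, SE 0.10, adjusted p = 0.0126). Atp5mg and Atp5mj did not pass the test, at -0.24 and -0.23, but did without Het_M_137, and their adjusted p was 0.0318 to 0.143 and 0.0373 to 0.158 over all alternatives. Atp5if1, the inhibitor that stops the enzyme from running backwards, was at 6.91 to 9.42 CPM in Het and 6.94 to 11.7 CPM in KO livers, with a log2 fold change of 0.15 (SE 0.12, adjusted p = 0.386).

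The c ring, which turns as protons pass, is built from copies of 1 mature protein that 3 genes encode. In KO livers 2 of these genes were lower and the other did not pass the test. They were set side by side after their values were seen. Atp5mc1 had 86.6, 104 and 111.1 CPM in the lowest, median and highest Het liver and 46.7, 80.3 and 89.7 CPM in KO livers, with a log2 fold change of -0.42 (SE 0.12, adjusted p = 0.0299). Atp5mc3 had 114.9, 128 and 152 CPM in Het and 91.3, 102 and 121 CPM in KO livers, with -0.33 (SE 0.09, adjusted p = 0.0242). For both genes every KO liver lay below every Het liver of its own sex. Atp5mc2 had 52.8, 62.4 and 66.9 CPM in Het and 59.1, 65.5 and 71.8 CPM in KO livers, which overlapped, and its log2 fold change of 0.09 (SE 0.09, adjusted p = 0.504) did not pass the test. In TPM, the 3 genes together summed to 377 to 409 in Het livers and 293 to 376 in KO livers. Atp5mc2 made up 16.8% to 21.5% of that sum in Het livers (19.3% ± 1.76, SD, n = 6) and 22.5% to 29.96% in KO livers (24.9% ± 2.59), without overlap. The call of Atp5mc1 was lost without Het_F_115, Het_F_126, Het_M_125 or KO_M_118, with an adjusted p of up to 0.0629, and that of Atp5mc3 without KO_M_122, with 0.0553.

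The coding sequences for the mature protein show how well reads of the 3 genes can be told apart. The last 228 bases of each coding sequence are shown 5′ to 3′ on the gene's strand, from the GENCODE transcripts on GRCm39, in lower case with the bases that differ from Atp5mc1 in capitals. They span 2 coding exons in each gene, on the minus strand, at chr11:95963930-95964461 (Atp5mc1), chr15:102571449-102573601 (Atp5mc2) and chr2:73738937-73739640 (Atp5mc3).
Atp5mc1: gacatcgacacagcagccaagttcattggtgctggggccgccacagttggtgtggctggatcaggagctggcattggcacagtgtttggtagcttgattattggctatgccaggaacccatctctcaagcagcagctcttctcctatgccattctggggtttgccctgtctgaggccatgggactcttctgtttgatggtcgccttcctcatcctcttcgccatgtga
Atp5mc2: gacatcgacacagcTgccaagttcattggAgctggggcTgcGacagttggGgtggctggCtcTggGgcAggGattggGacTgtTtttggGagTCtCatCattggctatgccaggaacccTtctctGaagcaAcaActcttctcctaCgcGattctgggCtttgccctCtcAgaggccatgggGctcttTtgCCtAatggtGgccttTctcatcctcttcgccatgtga
Atp5mc3: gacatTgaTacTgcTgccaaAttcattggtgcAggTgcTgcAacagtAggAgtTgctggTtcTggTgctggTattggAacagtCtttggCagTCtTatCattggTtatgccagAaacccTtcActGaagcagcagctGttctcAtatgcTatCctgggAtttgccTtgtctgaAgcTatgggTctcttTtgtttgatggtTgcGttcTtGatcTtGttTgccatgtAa

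Atp5mc2 differed from Atp5mc1 at 34 of the 228 bases and Atp5mc3 at 46, and Atp5mc2 and Atp5mc3 differed from each other at 49. Of the 76 codons, 32, 43 and 45 differed in the 3 pairs, and each of those changes was synonymous. The longest identical stretch of any pair was 21 bases, between Atp5mc1 and Atp5mc2. Other parts of the genome with copies of these sequences were not compared here.

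**Figure D4:**
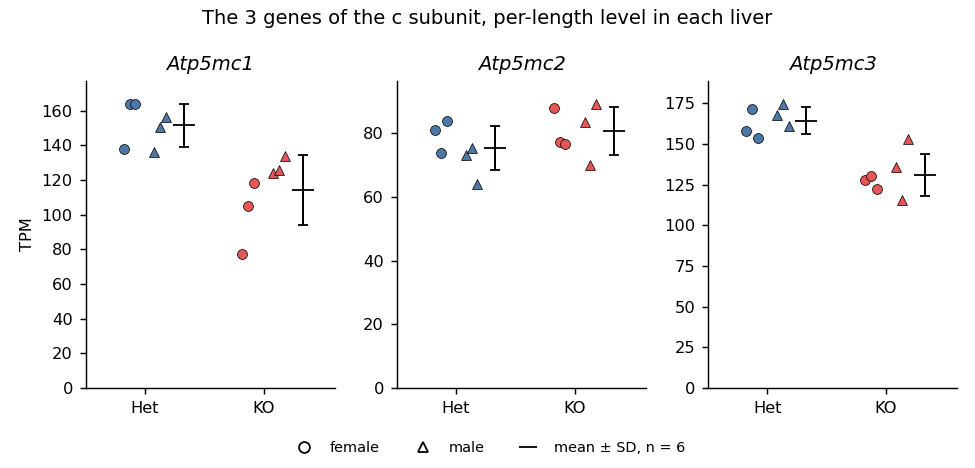
Level in TPM (vertical axes, from 0), which is per length, of the 3 c subunit genes in each liver, by genotype. Circles are females, triangles are males, and the bar is the mean ± SD of 6 livers. Atp5mc1 (77.5 to 133.7 TPM in KO, up to 164 in Het) and Atp5mc3 (at most 153 and 175) lie lower in KO livers, and Atp5mc2 (70.0 to 89.3 and 64.2 to 83.9) does not.

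The effect was asked within each sex as well. In females 2 of 44 members (4.55%) were lower, Uqcrb and Atp5pf, and none was higher, where 4.5% of all genes were lower and 5.15% higher (edgeR). The share of members lower in females was thus that of all genes in this fit. With DESeq2, library size alone or limma it was above that of all genes, with the counts given below. At an unadjusted p under 0.05 in edgeR, 13 members were lower and 1 was higher in females. The share of all genes at this unadjusted level was not counted, for females, for males or in the tests below. Uqcrb had 58.2, 67.6 and 58.9 CPM in the 3 Het females and 39.0, 46.9 and 41.8 CPM in the 3 KO females, a log2 fold change of -0.53 (SE 0.12, adjusted p = 0.0223). In males 5 members (11.4%) were lower and none higher, where 2.8% of all genes were lower and 4.11% higher (edgeR, with 22 members lower and 2 higher at an unadjusted p under 0.05). The members called in males were Uqcrb, Cox6b1, Cox7a2, Atp5pf and Atp5mk. Cox6b1 had 131, 112.5 and 102 CPM in the 3 Het males and 77.4, 85.5 and 74.4 CPM in the 3 KO males, a log2 fold change of -0.54 (SE 0.13, adjusted p = 0.0301). Atp5pf had 59.1, 59.2 and 56.8 CPM in Het females against 40.3, 49.3 and 47.0 in KO females, and 68.9, 69.0 and 66.1 CPM in Het males against 49.6, 49.0 and 49.6 in KO males. The median log2 fold change of the 44 members was -0.20 in females and -0.29 in males, and every member called in 1 sex was also called over both.

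The difference between the sexes in the genotype effect was tested directly and passed for 0 of 44 members, where 0.0465% of all genes passed (edgeR, 1 member at an unadjusted p under 0.05; DESeq2 and limma on log2(TPM + 1) also called 0). The 3 members with the smallest p for this interaction were Atp5if1, Cox6b2 and Cox5b. Atp5if1 had a log2 fold change of 0.45 (SE 0.17) in males and -0.14 (SE 0.17) in females, an interaction of 0.59 (SE 0.24, adjusted p = 0.515). Every KO male lay above every Het male for this gene, and the females overlapped. Cox5b was at -0.35 in males and -0.004 in females (interaction adjusted p = 0.581), and Cox6b2 at 3.83 and -0.36 (adjusted p = 0.575). Which sex showed more calls depended on scaling. With library size alone 11 members were lower in females and 2 in males, the reverse of the order with TMM scaling. With limma on log2(TPM + 1), which differs in test, unit and scaling at once, the counts were 11 and 0. Of 19350 genes tested, 1152 were lower in females with library size alone and 1165 with this limma fit, against 871 with TMM scaling. In males these counts were 380, 339 and 541. Over all genes, calls toward lower levels in KO were 46.7% of the female calls with TMM scaling and 62.3% with library size alone, and 40.5% and 31.8% of the male calls.

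Calls within a sex also rested on single mice. In females the count of 2 became 0 without Het_F_115 or KO_F_108, 4 without KO_F_123, and 1 without Het_F_111, Het_F_126, KO_F_112 or any 1 male. In males the count of 5 became 0 without Het_M_119, Het_M_125, KO_M_118 or KO_M_136, 1 without KO_M_122, 11 without KO_F_108, and 3 without Het_F_111, Het_F_126 or KO_F_123. In CPM, KO_F_108 had the lowest or near-lowest level of many members, with 41 of 44 below the Het mean. KO_F_123 had 42 of 44 below it and KO_F_112 had 34, and the KO males KO_M_122, KO_M_118 and KO_M_136 had 41, 38 and 35. In TPM the sum of KO_F_108 (4656) lay above those of KO_F_112 (4568), KO_F_123 (4563) and KO_M_122 (4515). Without Rn7s1, Rn7s2 and Rn7sk it was the lowest of all livers, at 9319 TPM. Het_M_119 and Het_M_125 were the highest livers in CPM, with 3 and 2 members below the Het mean. In TPM the highest sum was 5669 in Het_F_115, and Het_M_119 had 5285. After Rn7s1, Rn7s2 and Rn7sk were left out, the highest sum was 12890 TPM in Het_M_137.

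**Figure D5:**
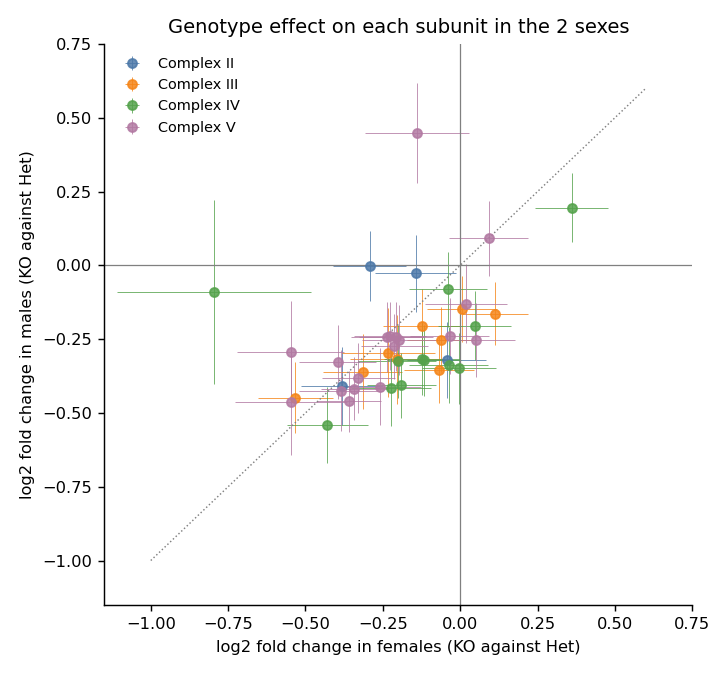
Log2 fold change of KO against Het in females (horizontal axis) and in males (vertical axis) for 43 tested members, with standard errors, coloured by complex; the dotted line marks equal effects and Cox6b2 lies outside the axes. Most members lie below 0 in both sexes, and Atp5if1, at -0.14 in females and 0.45 in males, stands off the line.

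Between males and females, over both genotypes, no member was called (edgeR; 5 of 44 had an unadjusted p under 0.05, and DESeq2 and limma on log2(TPM + 1) called 0). Of all genes 0.434% were higher and 0.491% lower in males. The median log2 difference of males over females was 0.14 for the members and -0.0019 over all genes tested. Of the 44 members 42 lay above 0, and the share of all genes above 0 was not counted. The summed level was 5453 to 6200 CPM in the 3 Het males and 5089 to 5362 CPM in the 3 Het females, while the KO livers overlapped, at 4831 to 5094 CPM in males and 4471 to 5193 CPM in females. In TPM these sums overlapped, at 5279 to 5559 in Het males and 5332 to 5669 in Het females. The mean in TPM was lower in Het males (5374) than in Het females (5457). After Rn7s1, Rn7s2 and Rn7sk were left out, the sums were 12610 to 12890 TPM in Het males and 11870 to 12380 TPM in Het females.

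Genes that help to build the complexes, as fixed lists, were read from the same fit, in which 9.8% of all genes were lower and 11.8% higher. These shares also apply to the lists that follow. Of 4 complex II assembly genes 1 was lower, and of 9 complex III assembly genes 2 were lower. DESeq2 called 1 and 2 lower in these lists, and limma 0 and 2. Sdhaf2, which adds the flavin to Sdha, had 18.1, 20.2 and 24.1 CPM in the lowest, median and highest Het liver and 14.8, 16.6 and 17.9 CPM in KO livers (log2 fold change -0.31, SE 0.09, adjusted p = 0.0306). Uqcc1 and Uqcc2, which act together in the synthesis of cytochrome b, were both lower. Uqcc1 had 26.9, 27.9 and 29.1 CPM in Het and 16.1, 19.5 and 23.1 CPM in KO livers, without overlap (-0.50, SE 0.09, adjusted p = 0.00332), and Uqcc2 was at -0.52 (SE 0.16, adjusted p = 0.0374). Of 26 tested complex IV assembly genes 5 were lower and none was higher, while DESeq2 called 6 and 1, and limma 5 and 2. Sco1, which carries copper to the oxidase, had 12.9, 14.2 and 14.9 CPM in Het and 8.28, 9.501 and 10.8 CPM in KO livers, without overlap (-0.56, SE 0.09, adjusted p = 0.0015). Lrpprc, which stabilises mitochondrial messenger RNA, was at -0.41 (SE 0.10, adjusted p = 0.013). Of 6 complex V assembly genes, Fmc1 was lower (-0.37, SE 0.11, adjusted p = 0.0288) and Dmac2l was higher, from 2.18 to 4.001 CPM in Het to 4.08 to 6.76 CPM in KO livers (0.78, SE 0.17, adjusted p = 0.0091). The median log2 fold changes of these 4 lists were -0.20, -0.21, -0.18 and -0.12.

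Among 15 genes of ubiquinone synthesis, cytochrome c and electron transfer flavoprotein 4 were lower and 2 higher. DESeq2 called 6 lower and 2 higher, and limma on log2(TPM + 1) called 1 lower and 2 higher. Pdss2, which makes the ubiquinone side chain, was at -0.44 (SE 0.10, adjusted p = 0.00887) and Etfdh, which passes electrons from fatty acid oxidation to ubiquinone, at -0.61 (SE 0.15, adjusted p = 0.0154). Neither overlapped between the genotypes. Coq8b and Coq7, of ubiquinone synthesis, were higher, at 1.06 (SE 0.22, adjusted p = 0.00736) and 0.53 (SE 0.14, adjusted p = 0.0209). Coq8b ranged from 11.3 to 18.7 CPM in Het and from 23.2 to 62.4 CPM in KO livers. Of the 3 tested ATP/ADP and phosphate carriers none passed the test, with log2 fold changes of 0.11 to 0.25 (edgeR, 0 at an unadjusted p under 0.05, and 0 by DESeq2 or limma).

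Of 12 tested regulators of mitochondrial biogenesis 2 were lower and none was higher, while DESeq2 called 2 and 1, and limma 1 and 1. Tfam, which packages and transcribes mitochondrial DNA, had 27.7, 29.6 and 34.6 CPM in Het and 20.6, 25.2 and 28.0 CPM in KO livers (-0.26, SE 0.08, adjusted p = 0.0434). Yy1 was at -0.32 (SE 0.10, adjusted p = 0.0455). Ppargc1a encodes PGC-1alpha, a coactivator that raises mitochondrial gene expression. Its level ranged from 4.16 to 51.9 CPM in Het livers (median 19.8) and from 27.4 to 220 CPM in KO livers (median 57.0), with the 2 highest values in KO_F_108 and KO_F_112. The log2 fold change of 1.63 did not pass the test (SE 0.58, adjusted p = 0.0742). Esrra, a receptor that works with it, was at 0.01 (SE 0.16, adjusted p = 0.959).

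The 6 subunits of complexes III, IV and V encoded in mitochondrial DNA gave no call over both sexes (edgeR, with 1 of 6 at an unadjusted p under 0.05, and 0 calls by DESeq2 or limma), at log2 fold changes of -0.30 to -0.05. Their median was -0.0018 in females and -0.36 in males, and none passed the interaction test (edgeR). In males edgeR called 0, with 3 of the 6 lower at an unadjusted p under 0.05, while DESeq2 called 1 lower and limma on log2(TPM + 1) called 0. Of 12 tested genes taken as measures of mitochondrial content 1 was lower, Vdac3 of the outer membrane, with 49.8, 56.4 and 58.9 CPM in Het and 42.0, 42.9 and 46.3 CPM in KO livers (-0.34, SE 0.07, adjusted p = 0.00767), and the median was -0.14. This share of calls is near that of all genes lower (9.8%), and DESeq2 called 3 lower, while limma on log2(TPM + 1) called 1 lower and 1 higher. Of 41 tested nuclear subunits of complex I 15 were lower and none was higher, with a median of -0.25, and DESeq2 called 18 and 0, and limma 17 and 0. The difference between complex I and the members was not tested.

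Some properties of the measurement were set beside these values. For 41 members above a mean of 10 CPM the annotated transcripts of those called lower were 371 to 3619 bases long (median 988) and those of members without a call 448 to 4030 (median 1522). Spearman's rho between length and log2 fold change was 0.06 over these 41 members and 0.02 over the 7670 genes above that level, as a description across genes, which share the same livers. Estimated counts of the members were not whole in 43.1% of values, where 12.0% of all values were not. The latter share includes genes without any count, whose values are whole by necessity. Even without the filter on low counts, only 32142 of the 57180 identifiers were tested. The shares were not compared at like expression, so they do not show whether members differ from other expressed genes. The named pseudogenes left out by the rule took few counts, at most 47.8 in any liver (Cox5b-ps). All members called, except Cox6b1, Cox7a2, Atp5f1e and Atp5mf, overlap at least 1 other annotated gene, and only for Cox7c, Cox7a2l and Atp5po is such a gene on the same strand. The libraries were stranded, and whether strand was used in counting is not given in the sources used here.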

How the data were processed

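Total RNA of 12 mouse livers, 3 per sex and genotype, was depleted of ribosomal RNA and sequenced as stranded paired reads. The authors processed the reads with nf-core/rnaseq, STAR 2.7.9a and Salmon 1.10.1 on GRCm39 with GENCODE M34, and deposited estimated counts per gene, 2 scaled versions of these and TPM. Groups came from the names KO and Het, since the sources conflict on the KO genotype. The mice carry individual numbers only, and no column of per-sample values was left unused. Here the deposited estimated counts were rounded, and genes with at least 5 reads at the median library size in 3 livers were kept. All 12 livers entered 1 fit of 4 group means in edgeR 4.0.16 (TMM scaling, quasi-likelihood test, robust, prior count 2, R 4.3.3), adjusted over all genes tested. The procedure was tested on simulated data. Deposited TPM served comparisons per length. DESeq2 1.42.0, limma 3.58.1 on log2(TPM + 1) and log2(TPM + 0.1), other scalings, filters and tables, and leaving out each liver were alternatives. P-values measure the spread between single mice. Positions are from GENCODE M39, on the same build. The members and lists were chosen with earlier results of these data known. Genes were named by role (every complex II subunit, the redox and core subunits of complex III, isoforms, the catalytic head and the inhibitor), by the smallest p per complex, direction and list among those called, by the smallest interaction p, and Ppargc1a, Esrra and Tfam always. Those named outside this rule are marked as such, and the interaction and overlap counts cover all members.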

Additional observations from a re-analysis of the deposited data

Results flagged for a closer look

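Single livers stood apart from the other 5 of their genotype for 9 of 98 sets of values examined. The sets were each tested member and the summed levels, in each genotype, and the gap had to exceed 0.625 of the range. Chance gives about 1 in 20 only for independent, normally distributed values. The 98 sets share the same livers, so their 9 flags cannot be set against that rate. Of these 9, 5 were low values in KO_F_108, with 46.2 CPM of Uqcrq, 38.6 of Atp5f1e, 46.7 of Atp5mc1, 40.3 of Atp5pf and 18.6 of Atp5me. The calls of Atp5f1e, Atp5pf, Atp5me and Atp5mc1 were each kept without this liver. In Het livers, Het_F_111 was low for Atp5mc1 at 86.6 CPM, Het_M_137 was low for Cox7a1 at 0.288 CPM, Het_F_126 was high for Cox6b2 at 2.83 CPM and Het_M_119 was high for Atp5mk at 42.1 CPM. Groups of 6 livers hold both sexes here.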

How the results depend on the processing

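Of the 16 members called, 10 kept their call in all 13 alternatives and in all 12 fits that left out 1 liver (Sdha, Uqcrb, Uqcrc2, Cox6b1, Atp5f1e, Atp5me, Atp5mf, Atp5mk, Atp5pf and Atp5po), and no call of a member reversed. Without the filter on low counts Cox7a2 (adjusted p = 0.0523), Cox7c, Cox7a2l and Atp5pd missed the threshold, and Cox7a2l and Atp5pd also missed it with limma on log2(TPM + 1) or log2(TPM + 0.1), and Atp5pd with the scaled table. The count of members lower over both sexes was 15, and 12 to 18 without 1 liver. It was 12 without the filter, 14 with limma on log2(TPM + 1), 21 with library size alone and 22 with DESeq2. Of all genes tested, 1897 of 19350 were lower in the main fit and 1546 of 32142 without the filter. Of 19350 genes, 1530 were lower with limma on log2(TPM + 1), 1813 with library size alone and 2357 with DESeq2. At an adjusted p under 0.01 it was 4, of which 0 were in complex II, 1 in III, 1 in IV and 2 in V, and then 0 were higher, 0 lower in females and 0 lower in males. The count higher became 0 without the filter and with limma on log2(TPM + 1) or log2(TPM + 0.1), and was 0 to 1 without 1 liver. In females the 2 members lower became 1 with RLE scaling, without the filter or without robust estimation, 4 with upper quartile scaling, 7 with DESeq2, 8 with limma after Rn7s1, Rn7s2 and Rn7sk were left out (an alternative chosen after seeing the data), and 11 with library size alone or with limma on either TPM scale. DESeq2 called 1 member higher in females. Among all genes, 871 were lower in females in the main fit, 713 without the filter and 947 with upper quartile scaling. The count was 1494 with DESeq2, 1152 with library size alone and 1165 with limma on log2(TPM + 1). In males the 5 members lower became 3 with the length-scaled table or upper quartile scaling and 2 with the scaled table or library size alone. They became 1 without the filter, 14 with DESeq2 and 0 with each limma fit. Among all genes, 541 were lower in males in the main fit and 412 without the filter. The count was 991 with DESeq2, 380 with library size alone and 339 with limma on log2(TPM + 1). Without 1 liver the counts were 0 to 4 lower and 0 to 1 higher in females, and 0 to 11 lower and 0 to 1 higher in males. In complex IV 5 members were lower with library size alone, DESeq2 or limma without the 3 RNAs, 1 without the filter, and 2 to 4 without 1 liver. The cause of these changes was not tested. The median log2 fold change lay between -0.27 and -0.21 without 1 liver. No analysis paired by litter was possible, because the labels give an individual number for each mouse and not its litter. Litter was not part of the fit, so any likeness between littermates was not taken into account.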
